A study of Mus musculus with 4 samples.

Results

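GABA and glycine are the fast inhibitory transmitters of the brain, and 27 genes that make, package, clear, sense or set the response to them were followed here through the cells of the adult mouse hippocampus. The genes were found by Ensembl gene ID among the 55422 genes of the deposited matrices, and all 27 were present. They comprise 12 subunits of the GABA-A receptor (Gabra2, Gabra3, Gabra4, Gabra5, Gabra6, Gabrb1, Gabrb2, Gabrg1, Gabrg3, Gabrd, Gabre and Gabrq), both subunits of the GABA-B receptor (Gabbr1 and Gabbr2), 4 subunits of the glycine receptor (Glra1, Glra2, Glra3 and Glrb), the scaffold protein gephyrin (Gphn), the enzymes Gad1, Gad2 and Abat, the vesicular transporter Slc32a1, the plasma membrane GABA transporters Slc6a11 and Slc6a13, and the chloride cotransporters Slc12a2 and Slc12a5. Single-nucleus RNA-seq libraries (10x Genomics, in which each RNA molecule carries a molecular identifier, or UMI) came from 2 Control samples of genotype Kat6a-f/f and 2 Kat6a-cKO samples of genotype NEX-cre, Kat6a-f/f. All 4 libraries therefore carry the floxed Kat6a gene, and only the Kat6a-cKO libraries carry NEX-cre, a Cre recombinase at the Neurod6 locus that is active in excitatory neurons of the forebrain. A consequence of having no NEX-cre control without floxed Kat6a is that the Cre allele and the loss of Kat6a cannot be told apart. The labels do not say whether a library is 1 animal or a pool, nor give a more exact age than adult, so p-values measure the spread between these libraries.

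GABA opens GABA-A receptors, which are chloride channels usually built from alpha, beta and either gamma or delta subunits, and the choice of alpha, gamma or delta subunit sets the place and speed of inhibition. GABA-B receptors act through G proteins and need both of their subunits. Glycine receptors are built from alpha subunits with Glrb, which ties them to gephyrin. Whether chloride flows in or out depends on Slc12a2, which brings chloride into the cell, and Slc12a5, which extrudes it. In the hippocampus GABA is released by interneurons onto pyramidal cells, granule cells, other interneurons and glial cells.

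Depth was even across libraries, with 186897245 and 183440076 total counts in Control and 177249737 and 171323466 in Kat6a-cKO, and between 7911 and 8442 barcodes with at least 5000 UMIs. Between 15 and 20 of those barcodes were shared by any pair of libraries. Nuclei were clustered without the 27 genes and named from lists of other marker genes, so a name such as CA1 means CA1-like nuclei by those markers. Clusters short of the naming thresholds entered no class and, among the genotype tests, at most the sum of all nuclei. They included a cluster of 585 barcodes led by genes such as Col6a1, Htr2c and Calcrl, in which 42.9% of the CA3 markers were raised. Others, of 1098 and 828 barcodes, were led by genes such as Fn1 and Vwc2l. Cluster c14 of 2449 barcodes, led by Dcn, was named CA1. The classes held, per library, 1621 to 1924 CA1, 482 to 670 CA3, 72 to 117 CA2, 37 to 54 mossy, 2719 to 3417 dentate granule and 580 to 720 inhibitory nuclei, and 303 to 667 astrocytes, 768 to 1077 oligodendrocytes, 226 to 368 oligodendrocyte precursor cells (OPC) and 388 to 614 microglia. The inhibitory class had sub-clusters named as Sst, Pvalb, Vip, Lamp5 and Cck types, with 37 to 139 nuclei per library each. Further sub-clusters reached no type name and are in none of the 5 types. Among them were sub-clusters of 176 nuclei nearest to the Lamp5 type and of 122 nuclei nearest to the Pvalb type. Cre transcripts were counted in Kat6a-cKO libraries (70 and 60 in CA1, 33 and 49 in CA3, 5 and 6 in dentate granule, 0 and 2 in inhibitory neurons) and 0 times in these classes of Control, as the labels have it. Kat6a itself stood at 63.7 and 66.1 CPM (counts of a gene scaled to a common total for each library and class) in CA3 of Control and 58.7 and 65 CPM in CA3 of Kat6a-cKO, and since the counts do not show which exons a molecule held, its level does not check the deletion. One cluster of 20 choroid plexus nuclei came wholly from Kat6a-cKO replicate 2 and entered no class. Empty droplets, the barcodes with 200 to 700 UMIs, had a median of 512 and 545 UMIs in Control and of 413 and 388 in Kat6a-cKO. The share of free RNA estimated from these droplets is the library's median, taken for each nucleus, over the counts of the class. It was lower in both Kat6a-cKO libraries than in both Control libraries in 9 of the 10 classes below, inhibitory neurons included. In mossy nuclei 1 library of each tied. All classes of a library use the same median, so they are not separate observations of less free RNA in Kat6a-cKO. The share estimated from markers of other lineages overlapped between genotypes in CA3 and dentate granule nuclei, but it was higher in Control in 3 glial classes, at 58% and 76.2% against 48.6% and 53.6% in astrocytes, 60.9% and 82.4% against 50.8% and 52.2% in oligodendrocytes, and 98.4% and 100% against 86.8% and 74.9% in microglia. In these 3 classes the share estimated from empty droplets was 9.97% to 12.6%, 11.5% to 14.6% and 17.3% to 21%. The marker estimate, which takes all counts of excitatory markers in glia as free RNA, was limited to 100%.

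The genes lie in part side by side, on the GRCm38 genome with GENCODE M21 gene models. On chromosome 5 the order is Gabrg1, Gabra2, Gabra4 and Gabrb1. Gabra4 (minus strand, 71569749 to 71658308) and Gabrb1 (plus strand, 71658113 to 72149037) start toward opposite sides and overlap at their first exons. Gabrg3 (56716465 to 57387188) and Gabra5 (57407672 to 57510059) are 20.5 kb apart on chromosome 7, both on the minus strand. Gabra6 and Gabrb2 are neighbours on chromosome 11, and Gabre, Gabra3 and Gabrq lie in that order on chromosome X. The spans range from 4.98 kb for Slc32a1 to 671 kb for Gabrg3, and counts from nuclei include unspliced RNA, which is read out mostly from long introns, so levels are compared below only between classes for 1 gene and not between genes.

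The promoters of the 3 genes that define a GABA-releasing cell and of the head-to-head pair Gabra4 and Gabrb1 are shown because the first group sets the inhibitory class apart and because the second pair shares 1 start region but was distributed differently over the classes. They are RefSeq windows on GRCm38.p6, from 250 bases before to 50 after the start, 5′ to 3′ on the gene's strand. Capitals mark the GC box, GGGCGG or its reverse complement CCGCCC.
Gad1 (chr2:70561879-70562178, plus strand): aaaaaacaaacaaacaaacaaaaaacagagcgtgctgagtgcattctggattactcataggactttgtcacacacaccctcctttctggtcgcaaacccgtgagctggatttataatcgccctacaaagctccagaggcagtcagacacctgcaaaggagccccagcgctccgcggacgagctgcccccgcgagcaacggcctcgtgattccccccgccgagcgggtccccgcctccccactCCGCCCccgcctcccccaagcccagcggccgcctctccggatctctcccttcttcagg
Gad2 (chr2:22622077-22622376, plus strand): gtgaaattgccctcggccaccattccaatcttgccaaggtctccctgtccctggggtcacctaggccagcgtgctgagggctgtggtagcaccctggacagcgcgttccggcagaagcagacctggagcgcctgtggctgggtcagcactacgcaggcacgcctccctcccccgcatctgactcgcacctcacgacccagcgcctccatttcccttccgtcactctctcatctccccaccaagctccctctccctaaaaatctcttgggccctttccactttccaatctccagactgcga
Slc32a1 (chr2:158610508-158610807, plus strand): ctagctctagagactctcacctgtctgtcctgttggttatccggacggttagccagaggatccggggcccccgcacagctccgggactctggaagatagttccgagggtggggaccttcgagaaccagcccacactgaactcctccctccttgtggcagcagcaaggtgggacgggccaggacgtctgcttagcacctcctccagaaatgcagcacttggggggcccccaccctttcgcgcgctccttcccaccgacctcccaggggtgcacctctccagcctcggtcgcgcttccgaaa
Gabra4 (chr5:71658259-71658558, minus strand): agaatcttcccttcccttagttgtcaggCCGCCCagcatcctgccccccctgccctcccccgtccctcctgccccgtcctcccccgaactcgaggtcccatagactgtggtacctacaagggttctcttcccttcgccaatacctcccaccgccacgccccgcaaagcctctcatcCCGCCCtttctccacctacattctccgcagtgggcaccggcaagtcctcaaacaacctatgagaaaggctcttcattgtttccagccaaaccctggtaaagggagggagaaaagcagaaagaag
Gabrb1, first of 2 windows (chr5:71657671-71657970, plus strand): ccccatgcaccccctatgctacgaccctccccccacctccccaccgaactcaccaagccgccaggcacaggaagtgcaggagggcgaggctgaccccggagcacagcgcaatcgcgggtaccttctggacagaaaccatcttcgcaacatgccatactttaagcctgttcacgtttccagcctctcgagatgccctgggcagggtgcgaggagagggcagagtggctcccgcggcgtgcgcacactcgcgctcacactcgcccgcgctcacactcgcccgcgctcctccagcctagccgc
The Gabra4 window held 2 GC boxes, that of Gad1 held 1, and those of Gad2, Slc32a1 and Gabrb1 held 0. A GC box was found in 17 of 30 windows of the 23 members with a RefSeq window (56.7%) and in 35.7% of all 32851 windows of 300 bases (no window of Gabrd, Glra1, Abat or Slc12a2 was used). All 5 windows were rich in CG, with 12 to 25 CG pairs against a median of 7 over all windows. The palindromes TAATTA and CACGTG were each found in 1 of the 30 windows (3.33%), against 5.29% and 7.15% of all windows.

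GABA synthesis and packaging marked the inhibitory class, as the mean levels of all 27 genes by class show in the heatmap. Gad2, the glutamate decarboxylase concentrated at nerve endings, stood at 424 and 457 CPM in inhibitory neurons of Control and at 500 and 472 CPM in those of Kat6a-cKO, 91 times its level in dentate granule nuclei (70.3 to 111 times in single libraries). Gad1, the isoform that makes most of the GABA of the cell, stood at 132 and 139 CPM in Control against 132 and 152 CPM in Kat6a-cKO. Slc32a1, which loads GABA and glycine into vesicles, stood at 51.7 and 48.8 CPM in Control against 31.2 and 44 CPM in Kat6a-cKO. The inhibitory level was 3.21 times that of the next of the 10 classes for Gad1, 18.6 times for Gad2 and 7.88 times for Slc32a1. Gad1 was also counted in OPC at 43.2 ± 8.91 CPM (mean ± SD of the 4 libraries) and in dentate granule nuclei at 27.4 ± 2.46 CPM. Every OPC library was above every dentate granule library, and the granule level was 12.9 times that of CA3 (8.01 to 16.4 times in single libraries). CA1, CA2, CA3 and mossy nuclei had means of 1.9 to 3.27 CPM of Gad1, and Gad2 in dentate granule nuclei was at 5.13 ± 0.76 CPM. Empty droplets held Gad1 at 115 CPM, Gad2 at 106 CPM and Slc32a1 at 31 CPM, above each gene's level in every excitatory and glial class. Since free RNA is only a share of the counts of a class, this does not show how much of them was expression. The share of counts from free RNA was 3.31% to 4.47% in dentate granule nuclei and 1.55% to 2.04% in CA3 by the UMI count of empty droplets, and 31.4% to 37% and 9.84% to 13.2% by markers of other lineages. Its part in the Gad1 counts was not tested.

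**Figure D1:**
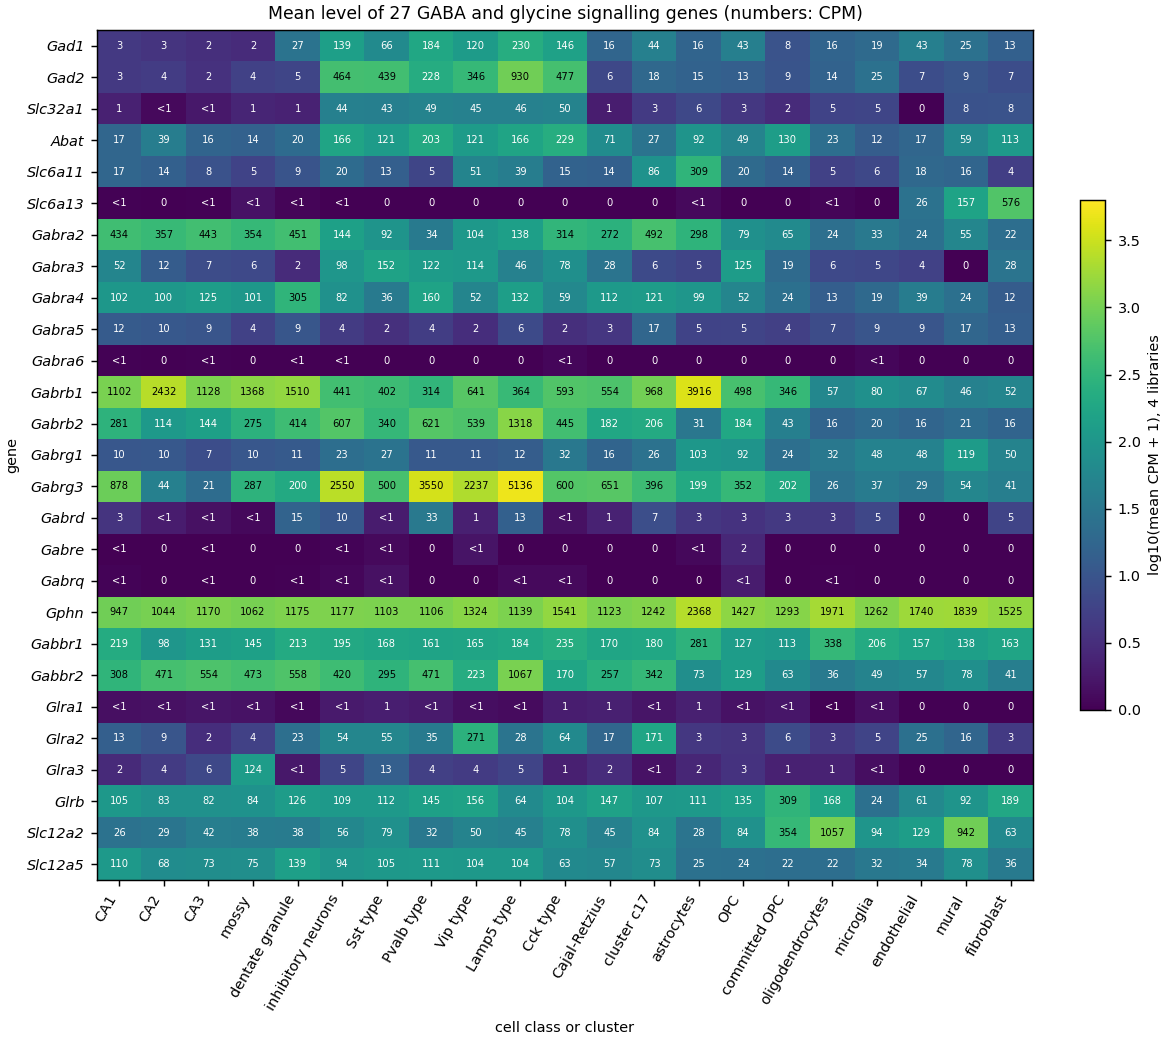
Mean level of each of the 27 genes (rows) in 21 cell classes or clusters (columns), as CPM in numbers and as log10(mean CPM + 1) in colour, over the 4 libraries. Gad1, Gad2 and Slc32a1 are highest in the inhibitory columns, Glra3 in the mossy column, Slc6a11 in astrocytes, Slc12a2 in oligodendrocytes and mural nuclei, and Slc6a13 in fibroblasts, while Gabra6, Gabre, Gabrq and Glra1 stay at or below 2 CPM throughout.

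Clearance genes separated by cell type. Abat, the transaminase that breaks GABA down, was at 166 ± 3.53 CPM in inhibitory neurons and 92.3 ± 6.67 CPM in astrocytes, against 16.7 ± 1.12 CPM in CA1. Slc6a11, the GABA transporter GAT3 of astrocytes, was at 296 and 308 CPM in Control against 288 and 343 CPM in Kat6a-cKO astrocytes. Each of these 4 libraries was above every library of the 9 other classes compared (CA1, CA2, CA3, mossy, dentate granule, inhibitory, OPC, oligodendrocytes and microglia), and the mean was 15.3 times that of inhibitory neurons, the next class. Slc6a13, the transporter GAT2, known from the meninges and vessel walls, was nearly absent from neurons and glia, with means of at most 0.531 CPM in those 10 classes. It was counted 49, 17, 52 and 28 times in the 22 to 24 fibroblast nuclei of each library, a mean of 576 ± 217 CPM, and was at 157 CPM in mural nuclei, which number only 7 to 15 per library.

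Among the alpha subunits, Gabra2 was broad in excitatory neurons and Gabra4 was concentrated in granule cells. Gabra2 stood at 434 ± 41.2 CPM in CA1, 443 ± 22 CPM in CA3 and 451 ± 31.1 CPM in dentate granule nuclei, and the libraries of these 3 classes overlapped. Inhibitory neurons had 144 CPM of Gabra2, and the granule level was 3.14 times that (2.94 to 3.54 times in single libraries). Gabra4, which pairs with delta subunits in granule cells, was at 312 and 302 CPM in Control against 302 and 302 CPM in Kat6a-cKO dentate granule nuclei. All 4 values were above every CA3 library (116 to 133 CPM), at 2.44 times the CA3 level, and CA1, CA2 and mossy nuclei were between 100 and 102 CPM on average. The plot of levels by library shows how tight these 4 values are.

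Gabra3 had a different pattern, high in CA1 but not in its excitatory neighbours. It was at 50.2, 52.4, 58.8 and 46.4 CPM in the CA1 nuclei of Control 1, Control 2, Kat6a-cKO 1 and Kat6a-cKO 2, and at 6.65 ± 1.26 CPM in CA3, a ratio of 7.91 (7.07 to 9.73 in single libraries). Dentate granule nuclei had 1.92 CPM. OPC had the highest mean of the 10 classes, 125 ± 2.43 CPM, with every library above every inhibitory library (92.6 to 106 CPM). Gabra5, an alpha subunit known for tonic inhibition of pyramidal cells, was low throughout: its highest mean of the 10 classes was 11.5 ± 2.1 CPM in CA1, the libraries of CA1, CA2, CA3 and dentate granule overlapped, and empty droplets had 39.4 CPM. Gabra5 was above its level in empty droplets in none of the classes and clusters of the heatmap. By the UMI count of empty droplets free RNA made up 2.18% to 3.04% of the CA1 counts. Its part in the Gabra5 counts was not tested.

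**Figure D2:**
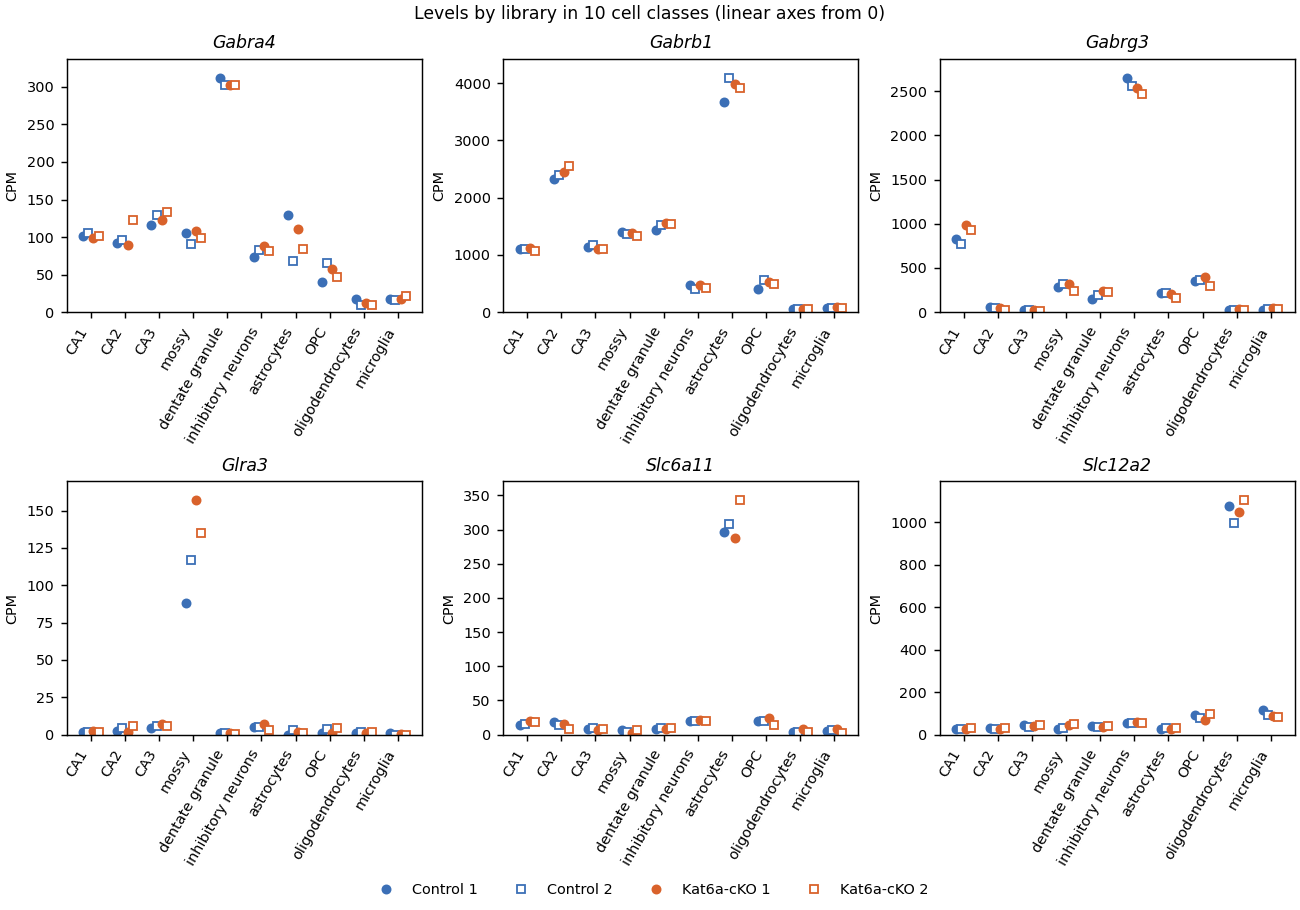
Levels in CPM (linear axes from 0) of 6 genes in 10 cell classes, with 1 point for each of 2 Control (blue) and 2 Kat6a-cKO (orange) libraries. The libraries of a class lie close together next to the gaps between classes: Gabra4 is at 302 to 312 CPM in dentate granule nuclei and at or below 133 CPM elsewhere, and Glra3 is at 88.2 to 157 CPM in mossy nuclei.

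The beta and gamma subunits set astrocytes, CA2 and interneurons apart. Gabrb1 was highest in astrocytes, at 3674 and 4091 CPM in Control against 3989 and 3909 CPM in Kat6a-cKO. CA2 followed at 2432 ± 92.7 CPM, 2.21 times the CA1 level (2.11 to 2.38 times in single libraries), and astrocytes were 1.61 times CA2. Gabrb1 in oligodendrocytes and microglia was at 56.8 and 80.4 CPM, below its 351 CPM in empty droplets. Gabrb2, a beta subunit of many synaptic receptors, was instead highest in inhibitory neurons, at 607 ± 22.9 CPM, followed by dentate granule nuclei at 414 ± 16.7 CPM, with no overlap between their libraries. Astrocytes had 31 CPM of Gabrb2.

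Gabrg3 differed sharply between the named pyramidal classes, which leave out the unnamed clusters. In CA1 it stood at 824 and 775 CPM in Control against 983 and 931 CPM in Kat6a-cKO. The CA3 mean was 21.1 CPM, so that CA1 was 42.9 times CA3 (31.5 to 73.3 times in single libraries), and the CA2 mean was 44 CPM. Inhibitory neurons had 2550 ± 77.9 CPM, 2.9 times CA1. Gabra5, its neighbour on chromosome 7, had overlapping libraries in CA1, CA2 and CA3. Gabrg1, a gamma subunit known from glia, was at 103 ± 8.94 CPM in astrocytes and 92.3 ± 8.94 CPM in OPC, whose libraries overlapped, and at 6.89 to 10.8 CPM in CA1, CA2, CA3, mossy and dentate granule nuclei. Empty droplets held more of it than any of these classes, 246 CPM.

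Gabrd, the delta subunit of extrasynaptic receptors, was low but patterned. Dentate granule nuclei had 15 and 17.4 CPM in Control against 11.3 and 16.7 CPM in Kat6a-cKO, 30.8 times the CA3 level (28.1 to 32.8 times in single libraries), and Pvalb-type interneurons had 32.9 ± 5.42 CPM. Only the Pvalb-type value was above that of empty droplets, 22.2 CPM. The epsilon and theta subunits Gabre and Gabrq and the alpha subunit Gabra6, best known from the cerebellum, had at most 5 counts per library in any of the 10 classes. In OPC, the highest class of the first 2 by CPM, Gabre had 2, 2, 2 and 3 counts and Gabrq had 1, 1, 3 and 1 counts in the 4 libraries. Gabra6 had a single count in microglia (Kat6a-cKO replicate 1) and 0 in the other 3 libraries of that class, and its mean was at most 0.173 CPM in the 10 classes.

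The receptor scaffold and the GABA-B subunits were counted in all 10 classes, with Gphn and Gabbr1 below their level in empty droplets in each. Gphn, which holds GABA-A and glycine receptors at synapses, ranged in its mean from 947 ± 17.4 CPM in CA1 to 2368 ± 57.7 CPM in astrocytes, with 4551 CPM in empty droplets. Gabbr1, which binds GABA, was at 338 ± 31.8 CPM in oligodendrocytes and 281 ± 22.6 CPM in astrocytes and lowest in CA2 at 97.5 CPM, and empty droplets had 484 CPM. Gabbr2, which couples the receptor to G proteins, was by contrast highest in neurons, with 558 ± 27.7 CPM in dentate granule nuclei and 554 ± 17 CPM in CA3, which overlapped. OPC had 129 ± 13.7 CPM, and oligodendrocytes, microglia and astrocytes had 35.5 to 73.3 CPM. CA1 had 308 ± 23.6 CPM of Gabbr2, below every CA3 library.

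Glycine receptor subunits had 4 different patterns over the 10 classes. Glra3 was counted 107, 184, 228 and 181 times in the mossy nuclei of Control 1, Control 2, Kat6a-cKO 1 and Kat6a-cKO 2, or 88.2, 117, 157 and 135 CPM. Those values were 21.6 times the CA3 level within a library (19.2 to 23.1 times), and the CA3 mean of 5.69 CPM was the highest of the 9 remaining classes. Outside those classes, Glra3 had 30.9 CPM in an unnamed neuronal cluster led by Fn1, Grm8 and Rspo2. Glra2, the alpha subunit of the developing brain, was at 54.5 ± 3.5 CPM in inhibitory neurons and 23.4 ± 1.21 CPM in dentate granule nuclei. Glrb, the beta subunit, was broad, between 81.8 CPM in CA3 and 168 ± 4.51 CPM in oligodendrocytes, microglia excepted at 24.2 CPM. Glra1, the main alpha subunit of the adult brainstem and spinal cord, had a mean of at most 1.13 CPM in any of the 10 classes.

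Of the 10 classes, oligodendrocytes had the highest level of Slc12a2 and dentate granule nuclei that of Slc12a5. Slc12a2 (NKCC1) stood at 1078 and 999 CPM in Control against 1047 and 1104 CPM in Kat6a-cKO oligodendrocytes, 12.7 times its OPC level (11.4 to 15.5 times in single libraries). Committed precursors, the class with Gpr17 among its markers and 46 to 56 nuclei per library, were between them at 354 ± 142 CPM. They were above OPC in each library (2.73 to 6.46 times) and below oligodendrocytes in each library. Microglia had 93.8 CPM, and the neuronal classes had 26 CPM (CA1) to 55.5 CPM (inhibitory neurons), with astrocytes among them at 27.9 CPM. Empty droplets had 78.5 CPM, close to the Sst and Cck types of interneurons (79.1 and 77.8 CPM). Slc12a5 (KCC2), the neuronal cotransporter, was at 139 ± 10.9 CPM in dentate granule nuclei, 110 ± 9.07 CPM in CA1 and 72.9 ± 4.17 CPM in CA3, with the granule level 1.91 times that of CA3. Astrocytes, OPC and oligodendrocytes had 22.4 to 24.8 CPM, and empty droplets 168 CPM.

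An unnamed cluster of 1231 barcodes led by Sema3c, Igfbpl1 and Sox11, genes known from immature neurons, had more Glra2, Slc6a11 and Slc12a2 than dentate granule nuclei. Its 93 to 178 nuclei per library used here had Glra2 at 166 and 171 CPM in Control against 190 and 157 CPM in Kat6a-cKO, 7.32 times the granule cell level. Slc6a11 was at 86.4 CPM, 9.79 times the granule level (7.86 to 10.7 times in single libraries), and Slc12a2 was 2.21 times the granule level. Gabra2 was at 492 ± 32.8 CPM and Slc12a5 at 72.7 ± 4.57 CPM. Since the cluster was not named by the marker lists, it entered no genotype test of its own and counted only in the sum of all nuclei.

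The 5 interneuron types differed in their subunits, as the plot of their levels by library shows. Lamp5-type nuclei had the highest Gabrg3, with 5310 and 5379 CPM in Control against 5122 and 4733 CPM in Kat6a-cKO, 10.4 times the Sst type. Pvalb-type nuclei were next at 3550 ± 30.9 CPM, and the Lamp5 type exceeded them in each library (1.32 to 1.53 times). Sst and Cck types, at 500 ± 96.7 and 600 ± 46.4 CPM, overlapped. Gabrb2 followed in the Lamp5 type, at 1318 ± 21.7 CPM against 621 ± 33.3 CPM in the Pvalb type, as did Gabbr2 at 1067 ± 74 CPM against 170 CPM in the Cck type, and Gad2 at 930 ± 74 CPM against 228 ± 11.6 CPM in the Pvalb type. In each of these 3 comparisons the 4 libraries of the Lamp5 type were above the 4 of the other type.

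Pvalb-type nuclei combined low Gabra2 with Gabra4 and Gabrd. Gabra2 was at 34.1 CPM there and at 314 ± 30.5 CPM in the Cck type, a ratio of 9.22 (7.71 to 11 in single libraries), while Gabra4 was at 160 ± 20.9 CPM, 4.58 times the Sst type. The Lamp5 type was close in Gabra4, at 132 CPM (Pvalb over Lamp5 1.03 to 1.52 times in single libraries). It also had Gabrd, at 13.4 CPM, 14.3 times the Sst type. Gad1 was at 184 ± 8.88 CPM in the Pvalb type and 230 ± 34.9 CPM in the Lamp5 type, and at 65.5 CPM in the Sst type, so Gad1 and Gad2 had different orders over the types. Sst-type nuclei had the highest mean of Gabra3, 152 ± 23.4 CPM, although its libraries overlapped those of the Pvalb type (122 ± 8.24 CPM). Within a library the Sst type was 1.06 to 1.47 times the Pvalb type. Vip-type nuclei had Glra2 at 275 and 264 CPM in Control against 248 and 299 CPM in Kat6a-cKO, 4.36 times the Cck type. Slc32a1 was alike across the types, with means from 43.3 CPM in the Sst type to 49.7 CPM in the Cck type and a wider spread between the libraries of a type than between those means.

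**Figure D3:**
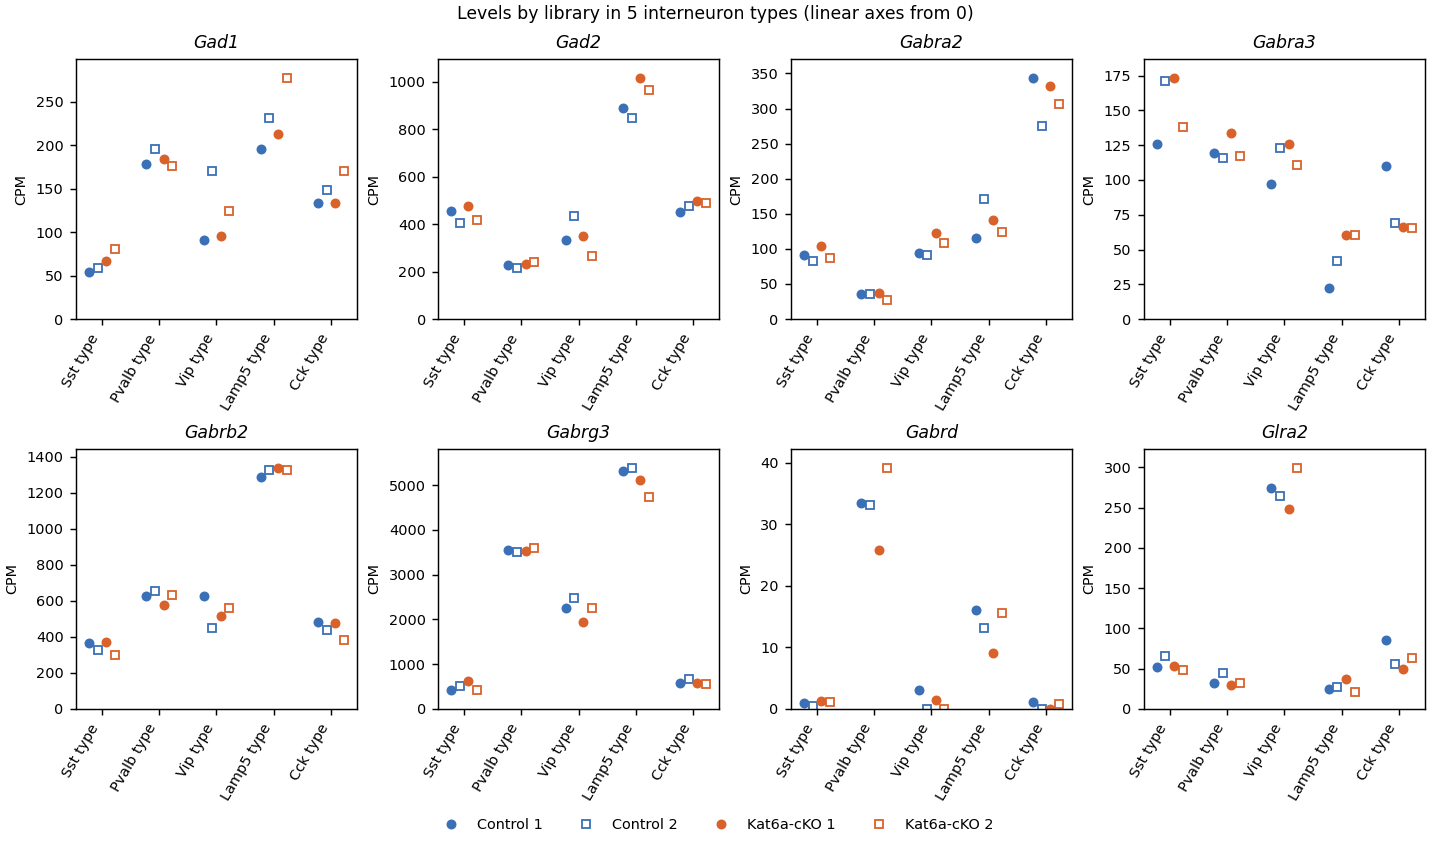
Levels in CPM (linear axes from 0) of 8 genes in 5 interneuron types, with 1 point for each of 2 Control (blue) and 2 Kat6a-cKO (orange) libraries. Gabrg3, Gabrb2 and Gad2 are highest in the Lamp5 type, Gabrd in the Pvalb type (25.9 to 39.1 CPM), Gabra2 in the Cck type and Glra2 in the Vip type (248 to 299 CPM).

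Kat6a-cKO libraries were then compared with Control libraries in 16 sums of nuclei. No member passed an adjusted p of 0.05 in any of them (edgeR quasi-likelihood test with Benjamini-Hochberg adjustment over all genes tested, 2 against 2 libraries). The number called was 0 of 23 members in CA1 (0.0235% of all genes tested were called there), 0 of 22 in CA3 (0.0407%), 0 of 22 in dentate granule (0.358%), 0 of 23 in inhibitory neurons (0%), 0 of 18 in astrocytes (0%), 0 of 21 in oligodendrocytes (0.00856%), 0 of 17 in OPC (0%), 0 of 16 in microglia (0.01%) and 0 of 25 in the sum of all nuclei (0.0552%). In the smaller classes it was 0 of 19 in CA2 (0.0479%), 0 of 14 in mossy (0.218%), 0 of 20 in the Sst type (0%), 0 of 19 in the Pvalb type (0.0345%), 0 of 18 in the Vip type (0%), 0 of 20 in the Lamp5 type (0.0122%) and 0 of 19 in the Cck type (0%). With so few genes called in any class, this count does not set the members apart from the rest. At an unadjusted p under 0.05 by edgeR there were 2 members in CA1 (8.16% of all genes), 2 in CA3 (8.06%), 4 in dentate granule (9.87%), 2 in inhibitory neurons (6.68%) and 7 in all nuclei (10.4%). Astrocytes had 0 (6.26%), oligodendrocytes 6 (7.55%), OPC 1 (6.82%) and microglia 1 (9.19%). There was 1 in CA2 (6.28%), 2 in mossy (6.15%), 4 in the Sst type (5.1%), 1 in the Pvalb type (5.46%), 2 in the Vip type (5.91%), 2 in the Lamp5 type (6.01%) and 0 in the Cck type (4.68%). DESeq2 called Gabrg3 in dentate granule nuclei and in all nuclei and no member in the other 14 sums. In several of the fits that called a member, given gene by gene below, more of all genes were called as well. In dentate granule nuclei the 62 genes called became 228 with DESeq2, 514 without a filter on low counts, 117 without Control replicate 2 and 482 when Kat6a-cKO replicate 2 was left out, and fell to 0 with free RNA subtracted by markers and to 1 with the empty-droplet profile subtracted. In inhibitory neurons the 0 genes called became 147 without Kat6a-cKO replicate 2, and in CA3 the 6 became 129 without Kat6a-cKO replicate 1. The median log2 fold change (Kat6a-cKO over Control) of the members was between -0.04 and 0.08 over the 16 sums, and that of all genes tested between -0.01 and 0.01.

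Of 25 further genes of the pathway, which traffic, anchor or regulate these receptors or carry their transmitters, 16 to 25 were tested per sum and 0 were called in any by edgeR, with 0 to 3 per sum at an unadjusted p under 0.05, where the shares of all genes are those above. DESeq2 called 1 of them, Gabarap in all nuclei (-0.44, adjusted p = 0.0186). With 1 library left out at a time, a group held a single library. The genes named next each passed the threshold in some of these fits, where a call rests on that single library. Their estimates over these fits were -0.44 to 0.88 for Kctd8 in CA1 and -0.20 to 0.69 in mossy nuclei. They were -1.03 to -0.47 for Slc38a1 in astrocytes and -0.96 to 0.31 for Kctd16 in OPC. For Plcl1 they were 0.23 to 0.71 in CA2, 0.36 to 0.57 in mossy nuclei and -0.88 to -0.13 in the Sst type, and for Gabarap -0.56 to -0.31 in all nuclei. Kctd16, an auxiliary subunit of GABA-B receptors, had 1.36 ± 0.36 in the Vip type (adjusted p = 0.557 by edgeR). There it was 3.31 and 0.68 without Control replicate 1 and 2, and 1.22 and 1.50 without Kat6a-cKO replicate 1 and 2. Without a filter on low counts edgeR called Gabarap in CA1 and dentate granule, Plcl1 in CA2 and Kctd16 in the Vip type, with doublets kept Kctd16 in OPC, and at Leiden resolution 2 Plcl1 in mossy nuclei. These fits called 0.0845% to 1.92% of all genes. Gabarap, which binds gamma subunits and takes part in moving receptors through the cell, is named after its values were seen. Its estimate was negative in 15 of 16 sums and at an unadjusted p under 0.05 by edgeR in 8. In those 8 the log2 fold changes ran from -1.18 in the Vip type to -0.40 in dentate granule nuclei, with adjusted p from 0.17 to 0.842. The sums share the same 4 libraries and in part the same nuclei, so they do not replicate each other. The span of Gabarap is short, 3.81 kb. Genes under 10 kb had a negative median in each of the 16 sums, between -0.09 and -0.22, against 0.03 to 0.10 for genes of 100 kb or more. The part of gene length in these values was not tested.

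Gabrg3 had the lowest adjusted p of the members in dentate granule nuclei. TMM-scaled levels, which correct CPM for composition and are used for all genotype comparisons, were 148 and 189 CPM in Control against 240 and 224 CPM in Kat6a-cKO. Each Kat6a-cKO value exceeded each Control value, with a log2 fold change of 0.46 ± 0.10 (SE) and an adjusted p of 0.126 by edgeR. DESeq2 gave an adjusted p of 0.00349 for the same counts, and edgeR without a filter on low counts 0.000147. With 1 library left out edgeR gave 0.29 (adjusted p = 0.173) if that was Control replicate 1, 0.65 (0.00356) if Control replicate 2, 0.40 (0.178) if Kat6a-cKO replicate 1 and 0.51 (0.0071) if Kat6a-cKO replicate 2. In CA1 the gene was at 838 and 755 CPM in Control against 997 and 930 CPM in Kat6a-cKO, a log2 fold change of 0.27 ± 0.08 with an adjusted p of 0.415 by edgeR, which became 0.0282 with no filter on low counts. The make-up of CA1 differed between libraries. Without cluster c14, led by Dcn, it held 1113 of 1621 and 1358 of 1913 nuclei in Control. In Kat6a-cKO these were 928 of 1723 and 1357 of 1924. Over 14 alternatives, CA1 without c14 included, the Gabrg3 estimate in CA1 was 0.20 to 0.35. Dentate granule nuclei were uneven too, with a single library giving 38.8% of a cluster of 5181 nuclei and 42.7% of another of 4604. The part of this in the granule estimate was not tested.

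In CA3, where Gabrg3 is low, the values were 22, 24, 26.1 and 12.6 CPM, in the order Control 1, Control 2, Kat6a-cKO 1 and Kat6a-cKO 2, and the Kat6a-cKO libraries lay on both sides of the Control ones (log2 fold change -0.26 ± 0.25, adjusted p = 0.863 by edgeR). The estimate turned on which Kat6a-cKO library entered: it was -0.86 (adjusted p = 0.000622) if Kat6a-cKO replicate 1 was dropped and 0.18 (0.934) if Kat6a-cKO replicate 2 was. CA2 was alike, at -0.65 ± 0.27 (adjusted p = 0.786 by edgeR), with -1.35 and an adjusted p of 0.000172 if Kat6a-cKO replicate 1 was dropped, -0.17 with 0.963 if Kat6a-cKO replicate 2 was, and -0.91 with 0.00903 without Control replicate 2. Inhibitory neurons, with the most of it, had 2665 and 2525 CPM in Control against 2584 and 2451 CPM in Kat6a-cKO (-0.04 ± 0.07, adjusted p = 0.943 by edgeR). The change in CA3 minus that in dentate granule nuclei was -0.76 ± 0.19 on the log2 scale, with an adjusted p of 0.271 in the edgeR interaction test, and that in inhibitory neurons minus CA1 was -0.31 ± 0.07 with an adjusted p of 0.287. No member passed in any of the 4 interaction tests, CA3 against CA1 (0 of 23 members, with 0.106% of all genes called), CA3 against dentate granule (0 of 23, 0.15%), CA1 against dentate granule (0 of 23, 0.0386%) and inhibitory neurons against CA1 (0 of 23, 0.0807%). At an unadjusted p under 0.05 by edgeR there were 2, 5, 1 and 4 members in these 4 tests, against 5.91%, 5.59%, 6.79% and 5.28% of all genes, and DESeq2 called 0 in each. For Gabrg3 the call of the first 2 turned on single libraries and on other settings. CA3 minus CA1 was -0.55 ± 0.21 with an adjusted p of 0.708 by edgeR. It was -1.09 with 5.93e-05 if Kat6a-cKO replicate 1 was dropped, -0.12 with 0.88 if Kat6a-cKO replicate 2 was, and -0.68 and -0.44 (adjusted p of 1 and 0.962) if Control replicate 1 or 2 was. CA3 minus dentate granule was -1.28 with 0.00346 and -0.35 with 0.91 without those libraries in the same order, and -0.61 with 0.272 and -0.88 with 0.0156 if Control replicate 1 or 2 was dropped. With all 4 libraries and no filter on low counts the adjusted p was 8.69e-07 for the first and 5.87e-10 for the second, and at Leiden resolution 2 the second was -0.94 with 0.000987. Inhibitory neurons minus CA1 was called without the filter too, at -0.31 with 0.00106. Of the further pathway genes 0 were called in the 4 tests, and without the filter on low counts 1 was called in CA3 minus CA1. Leaving out 1 library called Plcl1 in CA3 minus CA1 (0.39, adjusted p = 0.00578, if Kat6a-cKO replicate 2 was dropped, against 0.37 and 0.0885 with all libraries) and Hap1 in CA1 minus dentate granule (-0.64, 0.0113, if Kat6a-cKO replicate 1 was dropped, against -0.14 and 0.939), both by edgeR and named after their values were seen.

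**Figure D4:**
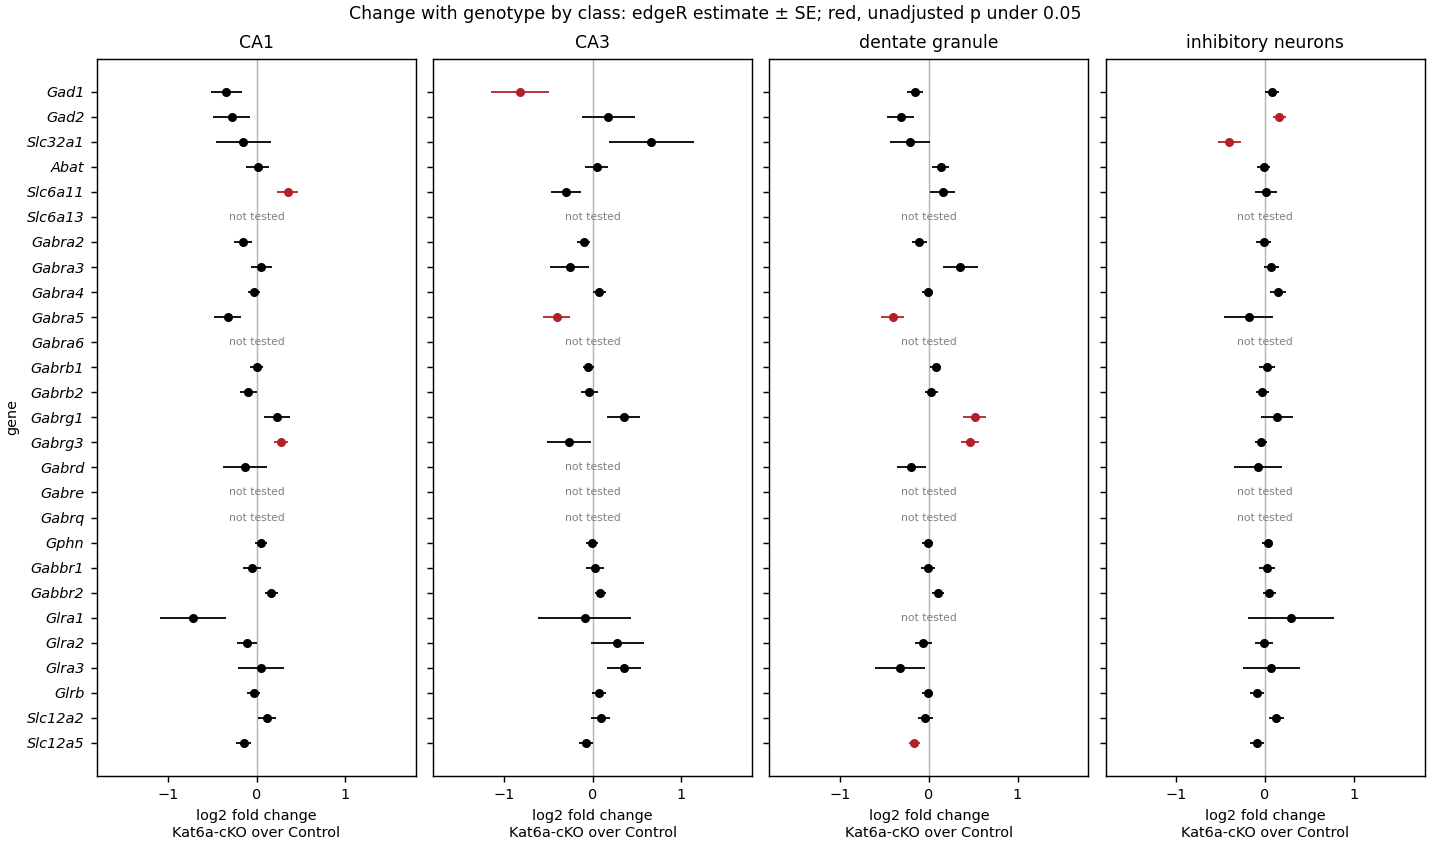
Log2 fold change of Kat6a-cKO over Control (points) ± SE (bars) from edgeR for the 27 genes in 4 classes, each from 2 against 2 libraries, with an unadjusted p under 0.05 in red and genes under the filter on low counts written as not tested. Most points lie within 0.5 of 0, and the red ones differ from class to class, with Gabrg3 at 0.27 in CA1 and 0.46 in dentate granule and Slc32a1 at -0.41 in inhibitory neurons.

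Besides Gabrg3, 3 members of dentate granule nuclei had an unadjusted p under 0.05 and libraries that did not overlap, or 4 of 22 members in all, where 9.82% of all genes tested met both. Gabrg1 was at 8.99 and 8.88 CPM in Control against 14.1 and 11.4 CPM in Kat6a-cKO (0.52 ± 0.13, adjusted p = 0.154 by edgeR, with 0.66 and 0.0093 if Kat6a-cKO replicate 2 was dropped, and 0.35 and 0.575 if Kat6a-cKO replicate 1 was). These levels are under the 246 CPM of empty droplets, whose median UMI count was lower in both Kat6a-cKO libraries. The log2 fold change of Gabrg1 became -0.10 when the counts expected from empty droplets were subtracted. The part of free RNA in it was not tested. Gabra5 was at 11.3 and 10.3 CPM in Control against 7.31 and 8.95 CPM in Kat6a-cKO (-0.41 ± 0.13, adjusted p = 0.306 by edgeR), and the same estimate, -0.41 ± 0.15, came from CA3 with 9.94, 10.8, 7.43 and 8.19 CPM (adjusted p = 0.513). CA1 and CA2 of Gabra5 had -0.32 ± 0.15 and -0.41 ± 0.32. Slc12a5 was at 148 and 146 CPM in Control against 127 and 136 CPM in Kat6a-cKO granule nuclei (-0.16 ± 0.06, adjusted p = 0.44 by edgeR). Gabra5 and Slc12a5 are also under the level of empty droplets, and with the empty-droplet profile subtracted their estimates were -0.39 and -0.18, while with the share from markers subtracted they were -0.57 and -0.17.

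In CA1 and CA3, 2 members each met both criteria, out of 23 and 22, where 8.12% and 7.94% of all genes did. Slc6a11 in CA1 was at 14.8 and 15.5 CPM in Control against 20.8 and 17.9 CPM in Kat6a-cKO (0.35 ± 0.12, adjusted p = 0.486 by edgeR). Over 14 alternatives, CA1 without cluster c14 included, that estimate was 0.24 to 0.45. In CA3 the log2 fold change of Slc6a11 was -0.30 ± 0.17. The difference between the 2 classes was -0.62 ± 0.16 with an adjusted p of 0.377 in the edgeR interaction test, and of 0.0449 without the filter on low counts. It was -0.81 if Kat6a-cKO replicate 2 was dropped and -0.46 if Kat6a-cKO replicate 1 was. Gad1 in CA3 rested on a mean of 2.87 CPM in Control and 1.63 CPM in Kat6a-cKO (-0.82 ± 0.32, adjusted p = 0.536 by edgeR), far below the 115 CPM of empty droplets. Non-overlap alone was common among all genes. It held for 12 of 23 members in CA1 (38% of all genes), 11 of 22 in CA3 (38%), 12 of 22 in dentate granule (40%) and 5 of 23 in inhibitory neurons (36.4%). It held for 8 of 18 members in astrocytes (36.5%), 10 of 21 in oligodendrocytes (36.3%), 6 of 17 in OPC (36.3%), 9 of 16 in microglia (39.3%) and 17 of 25 in all nuclei (41.6%). In the smaller classes it held for 7 of 19 members in CA2 (36.7%), 5 of 14 in mossy (35.4%), 8 of 20 in the Sst type (34.1%), 6 of 19 in the Pvalb type (33.8%), 6 of 18 in the Vip type (34.9%), 6 of 20 in the Lamp5 type (35%) and 3 of 19 in the Cck type (33.2%).

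Inhibitory neurons, which NEX-cre is not directed to, had the highest counts of the transmitter genes. Slc32a1 was at 52 and 48.2 CPM in Control against 31.9 and 43.8 CPM in Kat6a-cKO, with both Kat6a-cKO libraries lower (-0.41 ± 0.13, adjusted p = 0.507 by edgeR). By type the libraries did not overlap in the Sst type (48 and 58.1 against 31.4 and 37.5 CPM, -0.63 ± 0.19), the Lamp5 type (61.9 and 56.4 against 31.5 and 39.7 CPM, -0.72 ± 0.25) and the Pvalb type (62.5 and 53 against 35.3 and 48.4 CPM, -0.48 ± 0.23), and they overlapped in the Vip (-0.36 ± 0.32) and Cck types (-0.33 ± 0.23). The adjusted p in these 5 types was between 0.662 and 0.996 by edgeR. The types share libraries, so they do not replicate each other, and Kat6a-cKO replicate 1 was the lowest in each. The inhibitory estimate turned on which Kat6a-cKO library entered: it was -0.65 with an adjusted p of 0.00066 by edgeR without Kat6a-cKO replicate 2, and -0.19 with 0.944 when Kat6a-cKO replicate 1 was dropped instead.

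The median genotype estimate of short genes was also negative, and the mitochondrial RNA of inhibitory neurons was lower in both Kat6a-cKO libraries. Slc32a1 spans 4.98 kb, and the 3101 genes under 10 kb tested in inhibitory neurons had a median log2 fold change of -0.11, against 0.04 for the 2517 genes of 100 kb or more. The summed level of 37 mitochondrial genes in inhibitory neurons was 827 and 785 CPM in Control against 674 and 489 CPM in Kat6a-cKO, lowest in Kat6a-cKO replicate 2, whereas Slc32a1 was lowest in replicate 1. Their part in the result was not tested. Gad2 had a positive estimate, at 427 and 451 CPM in Control against 511 and 470 CPM in Kat6a-cKO (0.16 ± 0.07, adjusted p = 0.732 by edgeR), so that 2 of 23 members met both criteria, where 6.58% of all genes did.

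**Figure D5:**
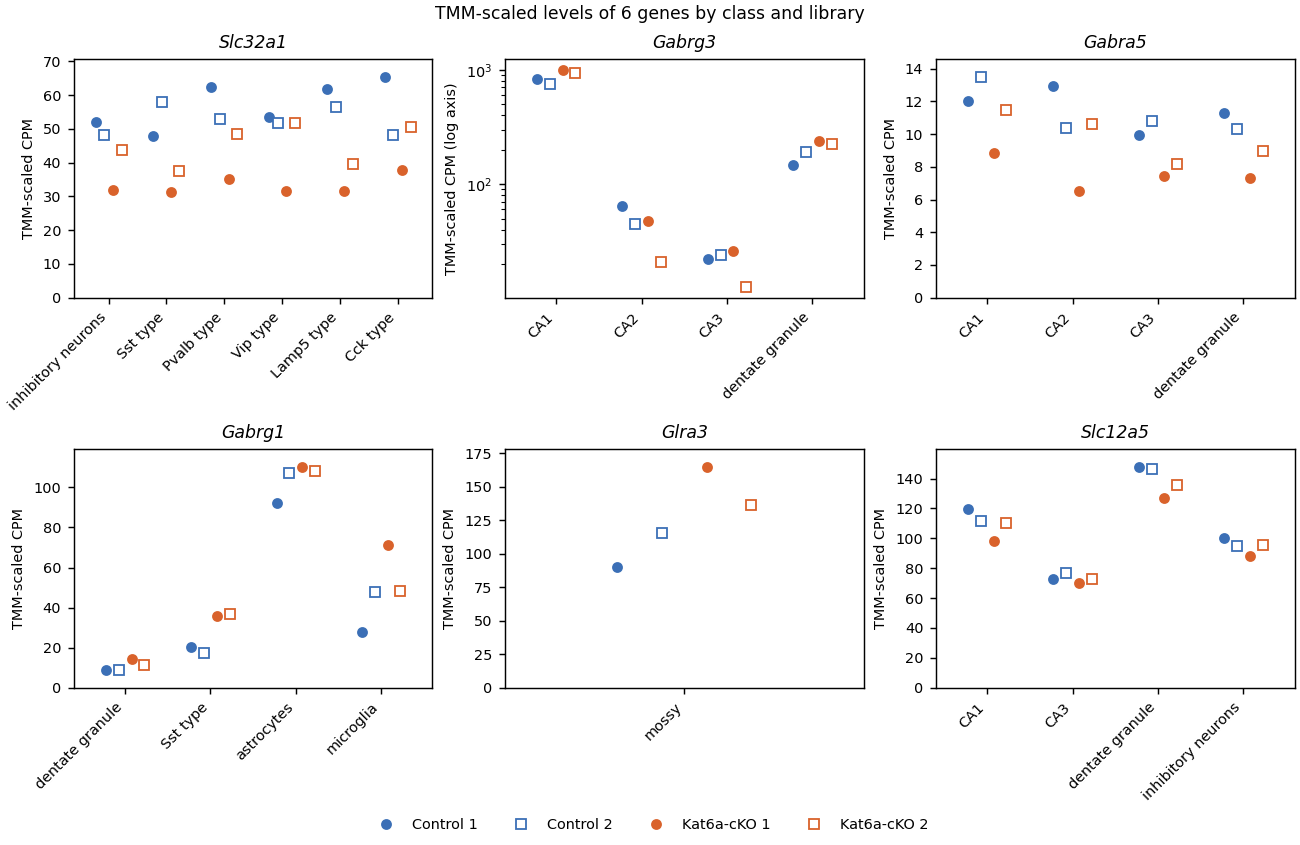
TMM-scaled CPM of 6 genes by class, with 1 point for each of 2 Control (blue) and 2 Kat6a-cKO (orange) libraries. Axes are linear from 0, except for Gabrg3, which has a log axis. Slc32a1 is lowest in Kat6a-cKO 1 in each interneuron type, and Gabrg3 is at 148 and 189 CPM in Control against 240 and 224 CPM in Kat6a-cKO dentate granule nuclei, while in CA3 the Kat6a-cKO values lie on both sides of the Control ones.

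Single interneuron types gave further members under an unadjusted p of 0.05 without overlap, each short of the adjusted threshold. In the Sst type, where 4 of 20 members met both against 4.97% of all genes, Gabrg1 was at 20.3 and 17.2 CPM in Control against 35.6 and 36.9 CPM in Kat6a-cKO (0.95 ± 0.21, adjusted p = 0.668 by edgeR), Gabbr2 had a log2 fold change of 0.28 ± 0.10 and Gad1 of 0.40 ± 0.15, both with an adjusted p of 0.931. Gabra3 in the Lamp5 type was at 22.7 and 42 CPM in Control against 63.1 and 61.6 CPM in Kat6a-cKO (0.92 ± 0.27, adjusted p = 0.512 by edgeR), from 18 to 62 counts per library, and the estimate was 1.45 (adjusted p = 0.0117) without Control replicate 2 and 0.57 (0.826) without Control replicate 1. Abat and Glrb in the Vip type had log2 fold changes of -0.54 ± 0.21 and -0.44 ± 0.18 (both adjusted p = 0.829 by edgeR). The counts meeting both were 2 of 20 members in the Lamp5 type (5.77% of all genes), 2 of 18 in the Vip type (5.82%) and 1 of 19 in the Pvalb type (5.1%).

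Mossy nuclei are targets of NEX-cre as excitatory neurons, and Glra3, their distinctive subunit, was at 90.4 and 115 CPM in Control against 165 and 136 CPM in Kat6a-cKO. Both Kat6a-cKO libraries were higher, with a log2 fold change of 0.54 ± 0.17 and an adjusted p of 0.519 by edgeR, and with 1 library left out it ranged from 0.38 (adjusted p = 0.586, without Control replicate 1) to 0.73 (0.0329, without Control replicate 2). Slc12a2 was at 28.7, 31.9, 46.3 and 48.1 CPM in the same order of libraries (0.63 ± 0.22, adjusted p = 0.567 by edgeR), and its estimate was 0.16 with doublets kept and 1.24 with free RNA subtracted by markers. These were 2 of 14 members tested, and 5.91% of all genes met both criteria in this class of 37 to 54 nuclei per library.

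Glia gave no member past the threshold either. In oligodendrocytes 5 of 21 members met both criteria against 7.31% of all genes. They were Glra2 (1.49 ± 0.50), Gabra3 (0.90 ± 0.36), Gad2 (-0.56 ± 0.24), Gabbr1 (0.24 ± 0.11) and Gabra5 (-0.73 ± 0.34), with adjusted p between 0.417 and 0.651 by edgeR. Of these only Gabbr1, at 326 and 297 CPM in Control against 365 and 371 CPM in Kat6a-cKO, was above 17.6 CPM in any library, and all 5 were below their level in empty droplets. Gabra3 moved to 1.8 with the empty-droplet profile subtracted, and Gabra5 to -1.65 with the share from markers subtracted. The part of free RNA in these glial values was not tested further. In microglia Gabrg1 was at 27.9 and 47.7 CPM in Control against 71.5 and 48.4 CPM in Kat6a-cKO (0.71 ± 0.25, adjusted p = 0.35 by edgeR), 1 of 16 members where 8.87% of all genes met both. That estimate was 1.15 (adjusted p = 0.0407) without Control replicate 2, 0.37 (0.703) if Control replicate 1 was dropped and 0.36 (0.92) if Kat6a-cKO replicate 1 was. It was 2.20 (0.962) with free RNA subtracted by markers, and the levels lie under the 246 CPM of empty droplets. The share of free RNA in this class was 74.9% to 100% by markers and 17.3% to 21% by empty droplets, both lower in Kat6a-cKO. In OPC Slc12a5 was at 27.3 and 31.7 CPM in Control against 17.9 and 21.8 CPM in Kat6a-cKO, under the 168 CPM of empty droplets (-0.59 ± 0.27, adjusted p = 0.724 by edgeR), 1 of 17 members against 6.32%. Its estimate was -1.17 with the empty-droplet profile subtracted. Astrocytes had 0 of 18, against 6.24%. Without Control replicate 1, Gabrb2 in astrocytes, where it is low, had an estimate of 1.55 with an adjusted p of 0.0122 by edgeR, and without Control replicate 2 it was -0.85 with 0.123. CA2 had 0 of 19 members that met both criteria, against 6.1% of all genes, and the Cck type had 0 of 19, against 4.49%.

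The sum of all nuclei took only barcodes with at least 5000 UMIs, which leaves out most glia. Of 1893 barcodes in the microglia cluster 6 reached that minimum, and of 3212 in the larger oligodendrocyte cluster 127 did. In this sum, where a change in RNA per cell and a change in the share of a cell type cannot be told apart, 7 of 25 members met both criteria against 10.4% of all genes. Gabrg3 was at 708 and 707 CPM in Control against 860 and 821 CPM in Kat6a-cKO (0.25 ± 0.05, adjusted p = 0.158 by edgeR and 0.0277 by DESeq2). Glra3 (0.44 ± 0.11), Gad2 (0.21 ± 0.08), Slc6a13 (1.00 ± 0.41) and Gabra3 (0.22 ± 0.09) had positive estimates, and Gabra5 (-0.39 ± 0.13) and Slc12a5 (-0.15 ± 0.06) negative ones, with adjusted p between 0.223 and 0.47 by edgeR. Slc6a13 rested on levels of 0.111 to 0.326 CPM.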

How the data were processed

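The authors deposited, for each of the 4 libraries, a matrix of whole-number UMI counts per barcode and gene, empty droplets included. Per the submitters' processing notes, mm10 and Seurat 4.0.1 were used, with no role given, and the aligner and the counting of strand are not given in the sources used here. Gene symbols came from GENCODE M21, in which 54587 of the 55422 gene IDs were found.

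Barcodes with at least 5000 UMIs (1000 for glia) were kept, and Scrublet, at an expected rate of 0.06, removed 450, 350, 550 and 498 doublets in Control 1, Control 2, Kat6a-cKO 1 and Kat6a-cKO 2. Clusters came from scanpy 1.11.5 (2000 variable genes, 40 principal components, 15 neighbours, Leiden resolution 1), without 89 genes that include the members and the pathway. A cluster of at least 20 nuclei was named where at least 3 and at least 50% of the markers of a class were 2-fold higher in it than in the other nuclei (CPM + 5), and its 10 leading genes held at least as many of them as of any other class. These thresholds were set after seeing the data. Of 2505 inhibitory nuclei, 191 lay in sub-clusters with markers of another class, and an alternative left them out. Counts were summed per library and class where every library held at least 30 nuclei. The sum of all nuclei took only barcodes with at least 5000 UMIs. Genotypes were compared with edgeR 4.0.16 in R 4.3.3 (TMM, default filter on low counts, quasi-likelihood, 2-sided, Benjamini-Hochberg adjustment over all genes tested, threshold 0.05), and the differences between classes with an interaction term. The genotype test within a class was run on counts simulated for CA3, dentate granule, inhibitory neurons and astrocytes, and the interaction test was not.

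Every member is accounted for. Test values are given for those with an unadjusted p under 0.05 whose libraries did not overlap, and levels for those with at least 5 CPM in a class. The members and lists were chosen with earlier results of these data known. Alternatives were RLE factors, no filter, DESeq2 1.42.0, a replicate block, leaving out each library, resolution 2, 8000 and 2000 UMIs, doublets kept and free RNA subtracted by markers. Added after seeing the data were subtraction of the profile of empty droplets, the inhibitory class without those sub-clusters, and CA1 without cluster c14. Counts were deep, but precision rests on 2 libraries per group.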

Additional observations from a re-analysis of the deposited data

How the results depend on the processing

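Of 177 recomputed counts of members called, in which the 7 smaller classes were pooled, 154 stayed at 0 and 23 did not. Without the filter on low counts there was 1 call in CA1 (1.92% of all genes called) and there were 2 in dentate granule (1.78%). The interactions gave 2 for CA3 with CA1 (173 of 29709 genes called), 1 for CA3 with dentate granule (115 of 29945) and 1 for inhibitory neurons with CA1 (170 of 29892). DESeq2 gave 1 in dentate granule (1.32% of all genes called) and 1 in all nuclei (2.13%). The fit with the replicate number as a block gave 1 in dentate granule (Gabrg3, 0.47, adjusted p = 0.0345 by edgeR), 1 in oligodendrocytes (Gabrg1, 0.56, 0.0478) and 1 in all nuclei (Gabrg3, 0.25, 0.0173). Of all genes, 2.01%, 2.76% and 3.89% were called in these 3 fits, against 0.358%, 0.00856% and 0.0552% without the block. The block also called 4 pathway genes (Slc38a1 in astrocytes, Gabarapl1 in oligodendrocytes, Gabarap in all nuclei and Kctd16 in the Vip type), in fits that called 0.193% to 3.89% of all genes. No label ties libraries of equal number to each other, so these fits rest on a shared number alone. Leiden resolution 2 gave 1 for CA3 with dentate granule (Gabrg3, -0.94, 0.000987), with 40 of 17269 genes called. Leaving out 1 library gave 0 to 1 calls in CA3, inhibitory neurons, astrocytes, microglia and both CA3 interactions, 0 to 2 in dentate granule and 0 to 3 in the 7 smaller classes counted together (at most 1 in any of them). The estimate of Gabrg1 in dentate granule reversed to -0.10 when the profile of empty droplets was subtracted. The cause was not tested. Of 22 levels, those of the highest class of each member with at least 5 CPM, 22 moved by less than 1 SD at resolution 2 and with the higher UMI minimum, 18 with doublets kept, 14 with empty droplets subtracted and 6 with the share from markers. Keeping doublets and resolution 2 were run for 11 and 10 of the 16 sums.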
